A study of Mus musculus with 3 samples.

Results

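The genes described here are 10 negative-feedback and transcription-factor genes of the RAS-ERK pathway, followed as stretches of open chromatin in nuclei of a mouse glioma series. They were Dusp4, Dusp6, Spry1, Spry2, Spry4, Spred1, Spred2, Etv1, Etv4 and Etv5, which are 10 of the 21887 protein-coding genes considered. All called regions that overlapped a gene body or the 10000 bp on either side were taken, 97 of the 147229 regions of the whole series. Regions within 1000 bp of either end of a gene are called gene-end regions (20 of the 97), and all others are called other peaks (77). The members were chosen by name and not by a rule on their values, but earlier results of these data were known.

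The assay was single-cell ATAC-seq: Tn5 transposase cuts accessible DNA, and cut sites are tallied for each nucleus barcode. A single library each was made from tissue overexpressing PDGFB-WT, from tissue overexpressing PDGFB-NLS, and from Control. The series' design text describes tumors made by in utero electroporation of piggyBac transposon plasmids into the embryonic brain. Glioma is the tissue label of every library, and the labels leave unstated whether the Control library is tumor tissue. The deposited files of that library carry the word Normal in their names, so whether ratios against Control set tumor against tumor or tumor against normal brain cannot be told. The sources used here do not give the meaning of NLS, the strain, the age, the promoter of the transgenes or the number of animals per library. Since each group is 1 library, differences could be neither tested nor checked in replicates, and intervals cover counting error only.

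The libraries differed greatly in depth. The median count per barcode was 821 over 7441 barcodes in PDGFB-WT, 2767.5 over 10996 in PDGFB-NLS and 13054 over 2226 in Control. Peaks called at the 10 loci numbered 31 in PDGFB-WT, 84 in PDGFB-NLS and 77 in Control. Where a library's peak list lacks a region, the count there is unknown and is not taken as 0. Barcode sequences shared between libraries numbered 22 for PDGFB-WT and Control, 45 for PDGFB-NLS and Control, and 118 for PDGFB-NLS and PDGFB-WT.

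Receptor tyrosine kinases such as the PDGF receptors switch on RAS, which drives the kinase chain RAF, MEK and ERK. ERK activity raises the expression of its own brakes. DUSP6 and DUSP4 are phosphatases that remove the activating phosphates of ERK, in the cytoplasm and in the nucleus. Sprouty and SPRED proteins act upstream and limit the activation of RAS and RAF, and SPRED1 does so by bringing the RAS inhibitor neurofibromin to the membrane. ETV1, ETV4 and ETV5 are ETS transcription factors of the PEA3 group, whose genes are held down by the repressor CIC until ERK signalling relieves it. Transcripts of several of these genes are widely used as a readout of ERK output in tumors, and PDGFRA signalling is a hallmark of oligodendrocyte precursor cells (OPCs).

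Promoter windows are shown for 4 members whose gene-end regions are described below. At the gene ends, Dusp6 and Spry2 had the widest range between cell classes in PDGFB-NLS and Control, and the Etv1 start and the internal Etv5 start each lay in a peak called in PDGFB-NLS only. Each window is RefSeq sequence of GRCm38.p6, running from 250 bases before to 50 bases after an annotated start, and capitals mark the motifs found. Called peaks covered 160 bases of the Spry2 window in PDGFB-WT, 135 in PDGFB-NLS and 124 in Control. The annotated Spry2 start and the marked motif of that window lay outside these peaks.
Dusp6 (chr10:99262981-99263280, plus strand): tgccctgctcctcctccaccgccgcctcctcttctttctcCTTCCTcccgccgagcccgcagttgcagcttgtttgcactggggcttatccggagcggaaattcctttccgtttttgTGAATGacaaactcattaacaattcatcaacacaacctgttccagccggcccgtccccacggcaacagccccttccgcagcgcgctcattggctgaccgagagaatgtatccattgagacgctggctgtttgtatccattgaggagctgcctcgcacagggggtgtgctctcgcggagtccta
Spry2 (chr14:105896770-105897069, minus strand): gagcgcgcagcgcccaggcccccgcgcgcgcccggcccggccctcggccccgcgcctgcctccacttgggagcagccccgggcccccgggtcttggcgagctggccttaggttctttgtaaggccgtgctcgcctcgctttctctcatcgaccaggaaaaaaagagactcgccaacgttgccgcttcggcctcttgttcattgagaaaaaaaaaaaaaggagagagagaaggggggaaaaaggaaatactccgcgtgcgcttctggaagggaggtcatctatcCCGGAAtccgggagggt
Etv1 (chr12:38779832-38780131, plus strand): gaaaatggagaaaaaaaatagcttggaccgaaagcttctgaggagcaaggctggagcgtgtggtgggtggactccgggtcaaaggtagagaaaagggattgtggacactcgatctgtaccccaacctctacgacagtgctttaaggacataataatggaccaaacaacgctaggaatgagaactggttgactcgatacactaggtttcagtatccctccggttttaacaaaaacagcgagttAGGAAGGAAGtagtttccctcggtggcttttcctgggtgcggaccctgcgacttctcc
Etv5 internal start (chr16:22438319-22438618, minus strand): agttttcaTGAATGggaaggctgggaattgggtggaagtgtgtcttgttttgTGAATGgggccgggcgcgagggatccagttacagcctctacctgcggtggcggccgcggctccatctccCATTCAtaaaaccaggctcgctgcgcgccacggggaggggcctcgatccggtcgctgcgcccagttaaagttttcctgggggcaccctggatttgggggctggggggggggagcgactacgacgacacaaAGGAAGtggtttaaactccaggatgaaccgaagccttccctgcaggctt

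Of the 10 members, 7 had a promoter in the RefSeq table (9 windows in all). Dusp4, Etv4 and Spry4 had none there. Both strands were searched for TGAATGAA and TGAATGGA (CIC), CCGGAA and AGGAAG (ETS), TGANTCA (AP-1) and TGACGTCA (CRE). No member window held either CIC octamer, the AP-1 motif or the CRE motif, which occur in 1.30%, 1.21%, 7.81% and 1.79% of all 32851 promoters in the table. The ETS motif AGGAAG was present in Dusp6, Etv1, Spred2 and Etv5 and in 35.4% of all promoters. Etv1 held it at positions -8 and -4, and these copies overlap. CCGGAA was present in Spry2 and in 14.9% of all promoters. The hexamer TGAATG, which both CIC octamers contain, was added after the sequences had been read. It occurred once in Dusp6, at position -133 from the start. The internal Etv5 window held it 3 times, at positions -242, -198 and, on the other strand, -129. Across the table, 12.7% of promoters held at least 1 copy. These matches describe the letters of the windows and not binding.

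At the gene ends, none of the 10 members differed by 1.5-fold or more in any comparison. For each gene, only the end with the higher mean CPM was used here. Levels were set as CPM, counts per 1000000 counts in the 47450 regions called in all 3 libraries, and ratios are given relative to the median of all genes compared. Over all genes compared, 5.87% were past 1.5-fold higher and 2.42% past 1.5-fold lower in PDGFB-WT against Control. The same shares were 4.8% and 1.24% in PDGFB-NLS against Control, and 1.92% and 3.07% in PDGFB-NLS against PDGFB-WT. The median log2 ratio of the 10 members was 0.11, 0.03 and -0.04 in these 3 comparisons, where all genes are centred on 0. At the end used, the ERK brakes and the ETV genes were thus within 1.5-fold of Control in both PDGFB libraries, which is also where most of all genes lay. This does not cover the other end of each gene. The lower-end region of Etv4, which differed more but had few counts, is described below.

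**Figure D1:**
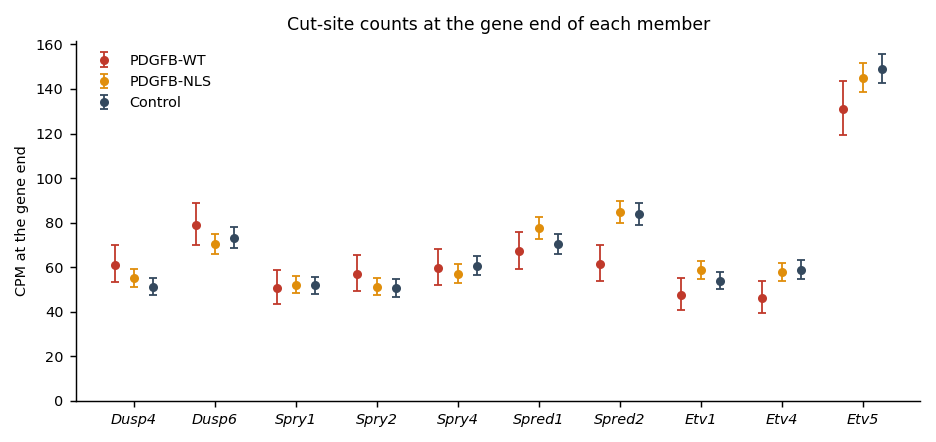
Normalised counts (CPM) at the gene end of each member in the PDGFB-WT, PDGFB-NLS and Control libraries, with exact 95% Poisson intervals (counting error only, 1 library each). Etv5 stands highest in every library at 131, 145 and 149 CPM, and the Spred2 point of PDGFB-WT (61.4) lies below those of PDGFB-NLS (84.8) and Control (83.8).

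Among the phosphatases, the end of Dusp4 (chr8:34807610-34819894, mm10, as are all positions here) had 61.1 CPM in PDGFB-WT, 55.0 in PDGFB-NLS and 51.2 in Control. The log2 ratio was 0.41 in PDGFB-WT against Control (95% interval 0.18 to 0.63) and 0.12 in PDGFB-NLS against Control (-0.03 to 0.28), so PDGFB-WT was higher than Control by more than counting error. The end of Dusp6 (chr10:99263231-99267489), which holds the promoter printed above, had 78.8 CPM in PDGFB-WT, 70.2 in PDGFB-NLS and 73.2 in Control. Its log2 ratio was 0.27 in PDGFB-WT against Control (0.05 to 0.44) and -0.04 in PDGFB-NLS against Control (-0.18 to 0.08). Over all genes, 18.3% had an interval above 0 in PDGFB-WT against Control and 16.9% one below 0, so an interval of this kind is common in these libraries.

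Of the Sprouty genes, Spry2 (chr14:105891947-105896819) had 57.1 CPM at its end in PDGFB-WT, 51.2 in PDGFB-NLS and 50.5 in Control. It was the only Sprouty gene whose interval lay above 0 in PDGFB-WT against Control (log2 0.33, 0.07 to 0.54). Spry1 (chr3:37639947-37644599) had 50.7, 52.0 and 51.8 CPM in PDGFB-WT, PDGFB-NLS and Control, and Spry4 (chr18:38586247-38601347) had 59.7, 57.1 and 60.6 CPM. The intervals of Spry1 and Spry4 spanned 0 in all 3 comparisons. The Spry4 region also lies at an end of Arhgap26, so its counts cannot be assigned to 1 gene.

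The SPRED genes differed from each other. Spred2 (chr11:19924442-20024026) had 61.4 CPM in PDGFB-WT, 84.8 in PDGFB-NLS and 83.8 in Control, and was the only member whose summed end had an interval below 0 in PDGFB-WT against Control relative to the median of all genes (log2 -0.29, -0.47 to -0.05). Its end consists of a pair of regions, and the one 1.24 kb inside the gene had the lowest ratio of the 19 single member regions compared in PDGFB-WT against Control (log2 -0.55 relative to the median of all regions, -0.84 to -0.20). That Spred2 region had 25.5 CPM in PDGFB-WT, 39.2 in PDGFB-NLS and 38.6 in Control. Spred1 (chr2:117121071-117182279) had 67.1 CPM in PDGFB-WT, 77.4 in PDGFB-NLS and 70.4 in Control, with an interval above 0 in PDGFB-NLS against Control (log2 0.16, 0.03 to 0.28). In that comparison 17.0% of all genes had an interval above 0 and 16% one below 0. In PDGFB-NLS against PDGFB-WT, Spred2 lay above 0 (log2 0.34, 0.11 to 0.53), while Dusp4 (-0.28), Dusp6 (-0.29) and Spry2 (-0.28) lay below 0, beside 14.6% of all genes above and 15.2% below.

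The 3 ETV genes were unlike each other in level. Etv5 (chr16:22381313-22439570) had the highest end CPM of the members, not scaled by region length, at 131 in PDGFB-WT, 145 in PDGFB-NLS and 149 in Control, which placed it at the 96.7, 97.9 and 97.6 percentile of genes with a peak there. Etv1 (chr12:38780082-38870483) had 47.6, 58.5 and 53.9 CPM and Etv4 (chr11:101769747-101785310) 46.1, 57.7 and 58.7 CPM in PDGFB-WT, PDGFB-NLS and Control. For the summed gene ends, relative to the median of all genes, the intervals of all 3 ETV genes spanned 0 in each comparison. The Etv4 end region also lies at an end of Gm39392, and its counts cannot be assigned to 1 gene.

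The Etv1 and Etv5 sums hide a difference in which regions were called. The shared Etv1 region, at -1.39 kb from the annotated start, had 47.6 CPM in PDGFB-WT, 42.5 in PDGFB-NLS and 49.8 in Control. A peak over the annotated Etv1 start itself, which covers 166 bases of the window printed above, was called in PDGFB-NLS only and had 16.04 CPM (394 counts in 219 barcodes). The Etv1 end also held a region called in Control only. The Control sum of 53.9 CPM thus also exceeds its shared region. The shared Etv5 promoter region had 131 CPM in PDGFB-WT, 134 in PDGFB-NLS and 149 in Control. The internal Etv5 start with the 3 TGAATG copies lay wholly inside a peak of 10.95 CPM (269 counts in 151 barcodes), also called in PDGFB-NLS only. Over shared regions alone, the log2 ratio of PDGFB-NLS against Control was -0.21 for Etv1 and -0.14 for Etv5, and that of PDGFB-NLS against PDGFB-WT was -0.28 for Etv1. Taken as single regions, relative to the median of all regions, the shared Etv1 region had -0.22 (-0.39 to -0.06) and the shared Etv5 region -0.15 (-0.25 to -0.06) in PDGFB-NLS against Control, so these intervals left out 0 where those of the sums did not. Of the 20 gene-end regions of the members, 15 were called in all 3 libraries, 4 in PDGFB-NLS only and 1 in Control only. Over all genes, 8.86% of gene-end regions were called in PDGFB-NLS only and 4.53% in Control only. Of the 77 other peaks, 16 were called in PDGFB-WT (20.8%), 64 in PDGFB-NLS (83.1%) and 60 in Control (77.9%), where the same shares over all genes were 32.6%, 85.5% and 71.9%. Counts of regions outside a library's peak list are unknown, so these calls do not show that the Etv1 and Etv5 starts were closed elsewhere.

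Away from the gene ends, Etv4 had the highest ratio of the 7 members compared in PDGFB-WT against Control. Its 3 other peaks called in all libraries summed to 48.5 CPM in PDGFB-WT, 38.8 in PDGFB-NLS and 29.5 in Control. The log2 ratio was 0.63 in PDGFB-WT against Control (0.38 to 0.90) and 0.37 in PDGFB-NLS against Control (0.16 to 0.55), and -0.25 in PDGFB-NLS against PDGFB-WT (-0.53 to -0.02). Etv4 was the 1 member past 1.5-fold in PDGFB-WT against Control, of 7 with enough counts, beside 17.9% of all genes past 1.5-fold higher and 6.54% past 1.5-fold lower. It lay at the 83.5 percentile of all genes compared, and 1 of 7 is a share close to the background. None of 9 members was past 1.5-fold in PDGFB-NLS against Control (6.73% higher and 2.64% lower over all genes), and none of 7 in PDGFB-NLS against PDGFB-WT (3.22% and 8.84%). The Etv4 value was below 1.5-fold (log2 0.50 to 0.57) when values were capped at 1, when the barcodes with the highest counts were left out and with gene ends of 2000 bp. It was 0.43 with 50 kb flanks and 0.16 when each library's own peaks were summed.

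**Figure D2:**
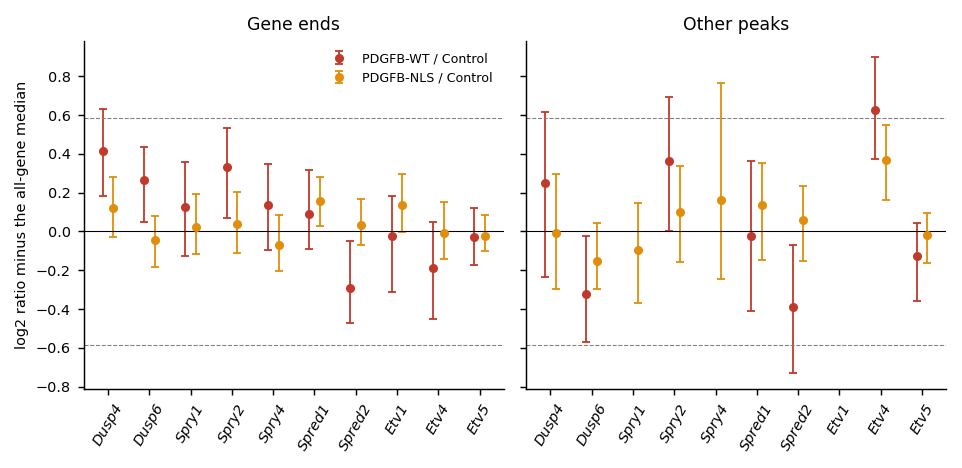
Log2 ratio of PDGFB-WT and of PDGFB-NLS over Control at the gene ends (left) and the other peaks (right) of each member, relative to the median of all genes compared, with exact 95% intervals of counting error; dashed lines mark 1.5-fold, and members with under 100 counts in the library with fewer have no point. The only point past a dashed line is Etv4 at its other peaks in PDGFB-WT (0.63).

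The remaining other peaks were closer to Control. Spry2, Spred2 and Dusp6 each had 1 other peak called in all libraries. At -2.23 kb from its start, Spry2 had 27.7 CPM in PDGFB-WT, 22.1 in PDGFB-NLS and 20.2 in Control (log2 0.36 in PDGFB-WT against Control, 0.00 to 0.69). At -4.03 kb from its start, Spred2 had 26.2 CPM in PDGFB-WT, 34.3 in PDGFB-NLS and 32.3 in Control (log2 -0.39, -0.73 to -0.07). At -1.47 kb from its start, Dusp6 had 37.3 CPM in PDGFB-WT, 40.2 in PDGFB-NLS and 43.9 in Control (log2 -0.32, -0.57 to -0.02). The brakes thus lay on both sides of Control, Spry2 above and Spred2 and Dusp6 below. In this comparison 30.5% of all genes had an interval above 0 and 27.1% below 0. In PDGFB-NLS against Control, Etv4 was the only member of 9 whose interval left out 0, beside 21.6% of all genes above and 20.6% below. In PDGFB-NLS against PDGFB-WT, Spred2 lay above 0 (log2 0.46, 0.12 to 0.78) and Etv4 below, beside 20.3% and 23.2% of all genes. Spry1, Spry4 and Etv1 had under 100 counts in PDGFB-WT and gave no ratio against it. Spry1 had 12.3 CPM in PDGFB-WT, 18.8 in PDGFB-NLS and 19.7 in Control. In the same order, Spry4 had 6.82, 5.54 and 4.85 CPM, and Etv1 had 2.96, 2.69 and 1.63 CPM.

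Within the Etv4 locus the regions differed by position. A region inside the gene, at -1.89 kb from its upper end (chr11:101782870-101783975), had 25.9 CPM in PDGFB-WT, 19.6 in PDGFB-NLS and 15.01 in Control. Relative to the median of all regions, its log2 ratio was 0.83 in PDGFB-WT against Control (0.48 to 1.21) and 0.39 in PDGFB-NLS against Control (0.12 to 0.67). It was the 1 region past 1.5-fold of 19 member regions compared in PDGFB-WT against Control, beside 18.7% of all regions higher and 4.17% lower. A region 5.77 kb beyond the upper end (chr11:101790591-101791576) had 10.4, 7.12 and 4.54 CPM in PDGFB-WT, PDGFB-NLS and Control, with a log2 ratio of 0.65 in PDGFB-NLS against Control (0.13 to 1.10). The gene-end region at the upper end had 46.1 CPM in PDGFB-WT and 58.7 in Control (log2 -0.30, -0.56 to -0.06, relative to the median of all regions). Relative to the median of all gene ends the same region had -0.19 (-0.45 to 0.05), so whether its interval left out 0 depended on the median taken off. The strand of Etv4 is not in the tables used here, so which of its ends is the start is not stated.

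A region at the lower end of Etv4 (chr11:101769529-101770596) had 11.3 CPM in PDGFB-WT, 8.10 in PDGFB-NLS and 2.02 in Control. It was singled out after its values were seen, since its 76, 199 and 52 counts (in 39, 105 and 23 barcodes) fall short of the 100-count minimum in PDGFB-WT and Control. The called peak was 1020 bp wide in PDGFB-WT, 979 bp in PDGFB-NLS and 720 bp in Control.

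**Figure D3:**
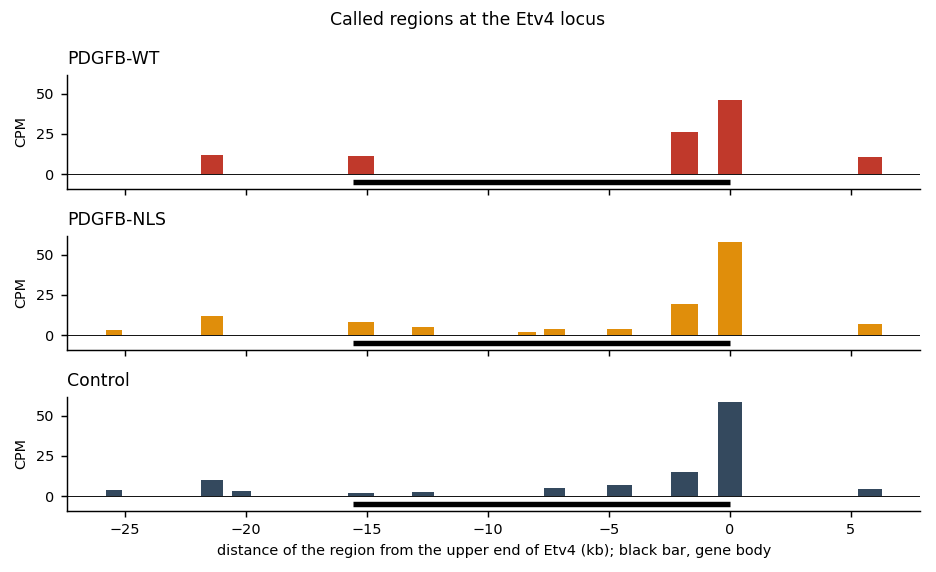
CPM of every called region at the Etv4 locus in PDGFB-WT (top), PDGFB-NLS (middle) and Control (bottom), against distance from the upper end of the gene in kb; bar widths are the regions' widths, and an empty place is a region not called in that library. The bar at the lower end (left end of the gene body) is 11.3, 8.10 and 2.02 CPM and the bar at -1.89 kb from the upper end is 25.9, 19.6 and 15.01 CPM.

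In PDGFB-NLS against Control, where 39 member regions had enough counts, 1 region was past 1.5-fold higher and 2 were past 1.5-fold lower (8.47% and 5.03% of all regions). The lower ones were a region 80.97 kb into Etv1, with 9.53 CPM in PDGFB-NLS and 18.6 in Control (log2 -0.96, -1.32 to -0.68), and a region 7.36 kb downstream of the Dusp6 start, with 5.94 and 10.4 CPM (log2 -0.81, -1.22 to -0.39). Neither was called in PDGFB-WT. In PDGFB-NLS against PDGFB-WT, 19 member regions were compared and 1 was past 1.5-fold, the internal Spred2 end region at log2 0.59 (0.24 to 0.88; 2.63% of all regions higher and 12.5% lower).

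Nuclei were then grouped by cell class, since bulk levels mix the classes and more open chromatin per nucleus cannot be told apart there from more nuclei of a type. Each library was clustered alone on peaks outside the member loci, and a cluster was named X-like from fixed marker genes. Such a name does not tell tumor nuclei from other nuclei. OPC-like, astrocyte-like and microglia or macrophage-like clusters were found in all 3 libraries. The astrocyte-like cluster 3 of PDGFB-WT and cluster 3 of Control had 0 astrocyte markers and 1 marker of another class among their 10 leading genes, although the astrocyte list was the highest of the marker lists in both. Values of astrocyte-like clusters are therefore given by cluster and not compared between libraries. Oligodendrocyte-like and endothelial-like clusters were named in PDGFB-NLS and Control, and mural or fibroblast-like nuclei in Control only. Unnamed clusters held 25.5% of barcodes in PDGFB-WT, 3.75% in PDGFB-NLS and 9.16% in Control. OPC-like nuclei made up 26.2% of barcodes in PDGFB-WT, 13.7% in PDGFB-NLS and 2.56% in Control, where they were 57 barcodes. The OPC-like cluster of PDGFB-WT had 1 OPC marker and 1 marker of another class among its 10 leading genes. Its second marker list was oligodendrocyte (median log2 fold 0.84). Levels within clusters are FPM, fragments per 1000000 fragments in the same shared regions.

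**Figure D4:**
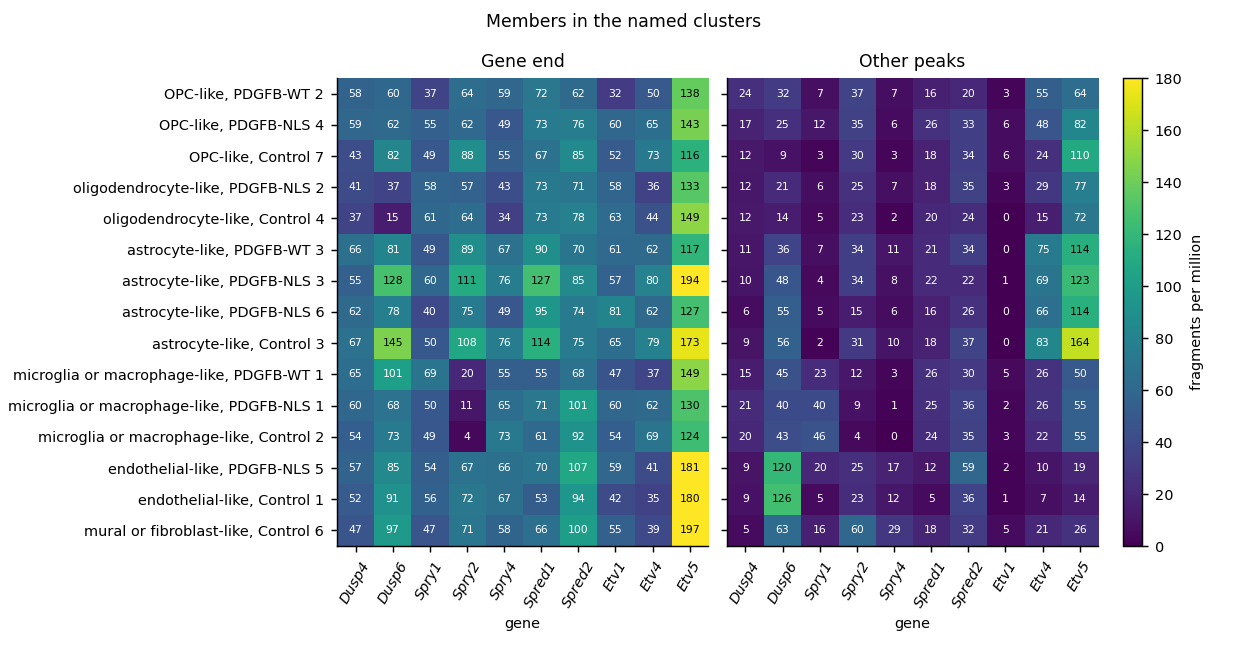
Fragments per 1000000 (FPM) of each member in every named cluster, at the gene end (left) and summed over the other peaks called in all libraries (right); rows give class, library and cluster number, and numbers in cells are rounded values. Low values stand out for the Spry2 end in the microglia or macrophage-like rows (20.1, 10.6 and 3.84) and for the Dusp6 end in the oligodendrocyte-like rows (37.0 and 14.6).

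The Spry2 end had its lowest level in microglia or macrophage-like nuclei in each library. It had 20.1 FPM there in PDGFB-WT (22 fragments, interval 12.6 to 30.4), 10.6 in PDGFB-NLS (44 fragments, 7.73 to 14.3) and 3.84 in Control (18 fragments, 2.28 to 6.07). In the highest cluster, which was astrocyte-like in each library, the Spry2 end had 88.7 in PDGFB-WT, 110.7 in PDGFB-NLS and 107.7 in Control. These are 4.42, 10.4 and 28.0 times the microglia or macrophage-like values. All other named clusters lay between 56.8 and 88.3, above the interval of this class in each library. The ratio of the highest to the lowest named cluster was 1.23 in PDGFB-WT, 1.75 in PDGFB-NLS and 2.23 in Control at the Spry4 end, and 1.87, 1.51 and 1.28 at the Spry1 end.

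Within the microglia or macrophage-like class, both PDGFB libraries exceeded Control at the Spry2 end. The log2 ratio was 2.37 in PDGFB-WT (1.41 to 3.36) and 1.46 in PDGFB-NLS (0.64 to 2.34). Without barcodes above the 95th percentile of counts, the Spry2 end had 19.01 FPM in PDGFB-WT, 8.93 in PDGFB-NLS and 1.93 in Control. The log2 ratios were then 3.28 (2.03 to 4.69) and 2.20 (1.05 to 3.53), with Control under the minimum of 20 counts, so the size of the ratio depended on the barcodes kept. Over all gene ends in this class, 4.8% were past 1.5-fold higher and 8.17% lower in PDGFB-WT against Control, and 3.55% and 3.07% in PDGFB-NLS against Control. Depth moved with this result, with a median of 847.5 counts per barcode of the class in PDGFB-WT, 3427.5 in PDGFB-NLS and 23324 in Control. Over barcodes of at least 1000 counts the Spry2 values were 22.9, 10.4 and 3.84. The 16 astrocyte markers, summed over gene bodies with 2000 bp flanks, stood in the class at 20.7% of their highest cluster in PDGFB-WT, 21.7% in PDGFB-NLS and 21.8% in Control. The 16 OPC markers stood at 17.2%, 18.7% and 14.2%. The 16 oligodendrocyte markers stood at 42.3%, 19.9% and 15.9%, and the 14 endothelial markers at 76.8%, 25.2% and 17.1%. In PDGFB-WT a peak was called at 15 of the 16 astrocyte, 14 of the 16 oligodendrocyte and 9 of the 14 endothelial markers, so its percentages rest on fewer genes. PDGFB-WT had no named oligodendrocyte-like or endothelial-like cluster. Endothelial was the highest marker list of its unnamed cluster 4, at a median log2 fold of 1.16, under the 1.2 needed for a name. At a clustering resolution of 1.0, a PDGFB-WT cluster of 686 barcodes was named endothelial-like. An Etv5 region inside the gene that is open in astrocyte-like nuclei had 8.22 FPM in the class in PDGFB-WT, 10.2 in PDGFB-NLS and 1.49 in Control. The part of depth and of these other-class signals in the Spry2 difference was not tested.

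At the other gene ends of the microglia or macrophage-like class, Dusp6 and Spry1 had an interval above 0 in PDGFB-WT against Control, and Etv4, Spred2 and Spry4 one below 0. Over all gene ends of the class, 11.8% had an interval above 0 and 10.6% one below 0. Etv4 had 37.4 FPM in PDGFB-WT, 62.4 in PDGFB-NLS and 68.9 in Control (log2 -0.89 in PDGFB-WT against Control, -1.40 to -0.42). Dusp6 had 101 FPM in PDGFB-WT, 68.4 in PDGFB-NLS and 73.4 in Control (log2 0.45, 0.13 to 0.76), and Spry1 had 69.4, 49.8 and 48.7 FPM (log2 0.50, 0.10 to 0.88). Spred2 had 67.6, 101 and 92.2 FPM (log2 -0.46, -0.84 to -0.10), the direction it had in the whole library, and Spry4 had 54.8, 65.0 and 72.8 FPM (log2 -0.42, -0.84 to -0.02). In PDGFB-NLS against Control, Spry2 was the only member in this class with an interval that left out 0, beside 6.62% of gene ends above and 7.71% below. In PDGFB-NLS against PDGFB-WT, Spred2 (log2 0.60) and Etv4 (0.75) lay above 0, and Dusp6 (-0.55), Spry1 (-0.46) and Spry2 (-0.90) below, where 9.96% of gene ends had an interval above 0 and 10.3% below, and 7.92% were past 1.5-fold higher and 4.16% lower.

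The Dusp6 promoter was least open in oligodendrocyte-like nuclei. It had 37.0 FPM there in PDGFB-NLS (29.8 to 45.3) and 14.6 in Control (10.8 to 19.3), against 127.8 and 144.8 in the most open astrocyte-like cluster of the same libraries. In OPC-like nuclei it had 60.4 in PDGFB-WT, 62.2 in PDGFB-NLS and 82.2 in Control. Between the libraries, the oligodendrocyte-like value was higher in PDGFB-NLS than in Control (log2 1.36, 0.85 to 1.89), where 11.6% of gene ends were past 1.5-fold higher and 4.55% lower, and 14.4% had an interval above 0 and 12.5% below. Astrocyte markers in this class stood at 30.9% of their highest cluster in PDGFB-NLS and 22.6% in Control. OPC markers stood at 69.3% and 61.9%, and the share of either in the Dusp6 difference was not tested. Of the astrocyte-like clusters, the Dusp6 end was at 81.2 in cluster 3 of PDGFB-WT, 127.8 and 78.0 in clusters 3 and 6 of PDGFB-NLS, and 144.8 in cluster 3 of Control.

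In OPC-like nuclei, no member end differed beyond counting error in PDGFB-WT or PDGFB-NLS against Control. Over all gene ends, 7.38% and 10.1% were past 1.5-fold higher and lower in PDGFB-WT against Control, and 6.07% and 6.9% in PDGFB-NLS against Control. Intervals lay above 0 for 2.73% and below 0 for 4.07% of gene ends in PDGFB-WT against Control, and for 2.16% and 3.81% in PDGFB-NLS against Control. The OPC-like cluster of PDGFB-WT also had that library's highest oligodendrocyte marker signal. In the OPC-like clusters of PDGFB-NLS and Control, these markers stood at 41.0% and 26.5% of their highest cluster. Whether the PDGFB-WT class mixes OPC-like and oligodendrocyte-like nuclei was not tested. With 57 Control barcodes, the interval of Dusp6 in PDGFB-WT against Control ran from -1.05 to 0.32 in log2 and that of Etv5 from -0.21 to 0.86. Between the PDGFB libraries, Etv1 was higher in PDGFB-NLS at 59.7 FPM, against 31.6 in PDGFB-WT (log2 0.86, 0.30 to 1.46; 7.45% of gene ends past 1.5-fold higher and 5.39% lower, and 6.77% with an interval above 0 and 7.22% below). The Etv1 end sums the shared region and, in PDGFB-NLS only, the peak over the annotated start. Over the shared region alone it had 34.6 FPM in PDGFB-NLS (26.9 to 43.8) and 31.6 in PDGFB-WT (21.9 to 44.2), with overlapping intervals. In endothelial-like nuclei no member end of PDGFB-NLS differed from Control beyond counting error, beside 6.4% of gene ends past 1.5-fold higher and 4.63% lower, and 5.4% with an interval above 0 and 6.07% below.

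At several members, regions of 1 gene were open in different classes. At Etv5, a region 10.5 kb inside the gene (chr16:22428612-22429539) had 111 FPM in the astrocyte-like cluster of PDGFB-WT, 122 and 112 in those of PDGFB-NLS and 164 in that of Control. In microglia or macrophage-like nuclei the same Etv5 region had 8.22, 10.2 and 1.49 in PDGFB-WT, PDGFB-NLS and Control. Another Etv5 region, at -5.31 kb from the start (chr16:22444406-22445354), was the reverse. It had 27.4, 35.3 and 39.9 FPM in microglia or macrophage-like nuclei of PDGFB-WT, PDGFB-NLS and Control, and at most 3.05 in any other named cluster. Over the whole libraries these Etv5 regions had 57.9, 59.8 and 56.0 CPM and 9.48, 12.4 and 14.3 CPM.

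**Figure D5:**
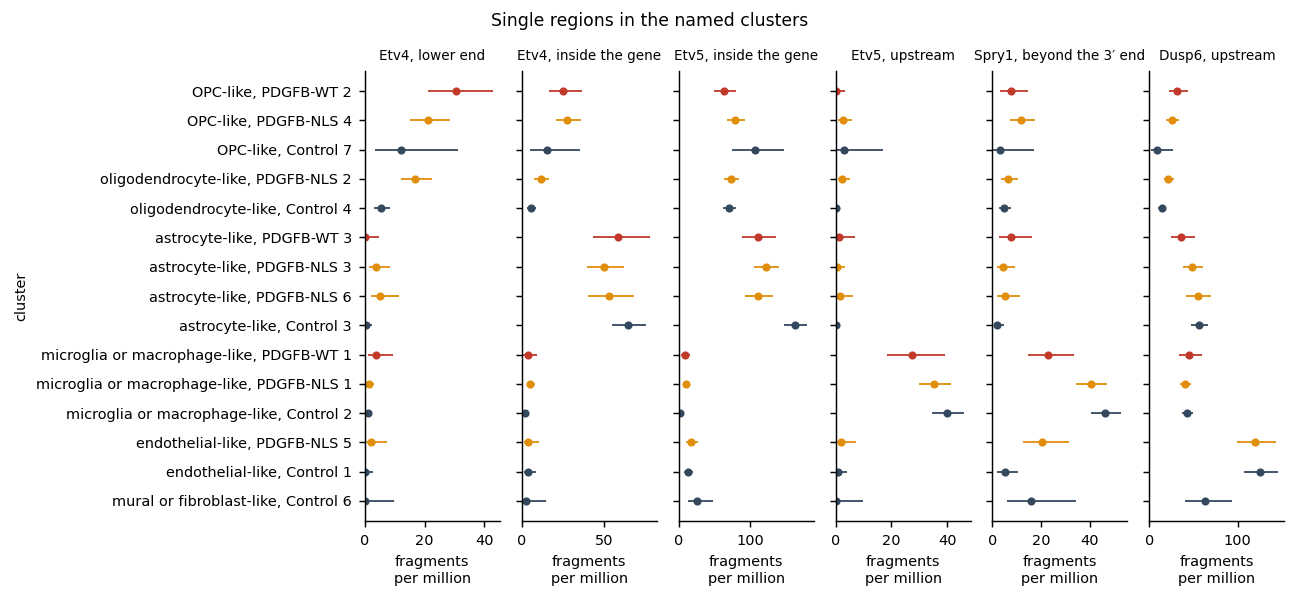
Fragments per 1000000 (FPM) of 6 single regions in each named cluster, with exact 95% Poisson intervals; colours are the libraries of the plot of gene-end levels (red PDGFB-WT, orange PDGFB-NLS, dark blue Control). The Etv5 region inside the gene and the one upstream mark opposite classes, and the Dusp6 upstream region is highest in the endothelial-like clusters (120 and 126).

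Etv4 was divided in the same way among 3 classes. The lower-end region was most open in OPC-like nuclei, with 30.7 FPM in PDGFB-WT (33 fragments, 21.1 to 43.1), 21.1 in PDGFB-NLS (42 fragments, 15.2 to 28.5) and 12.2 in Control (4 fragments, 3.32 to 31.2). Oligodendrocyte-like nuclei had 16.7 in PDGFB-NLS (12.03 to 22.6) and 5.37 in Control (3.18 to 8.48), which do not overlap. This region was singled out after its values were seen, and its called peak was 979 bp in PDGFB-NLS and 720 bp in Control. No share over all regions was counted within this class. Of its gene ends, 14.4% had a ratio interval above 0 and 12.5% below in PDGFB-NLS against Control. In astrocyte-like nuclei the Etv4 lower-end region had no fragment in PDGFB-WT, 3.80 and 5.20 in PDGFB-NLS and 0.41 in Control. The region inside the gene was instead most open in astrocyte-like nuclei, with 58.7 in PDGFB-WT, 49.98 and 52.9 in PDGFB-NLS and 64.6 in Control. Another Etv4 region, at -5.84 kb from the lower end, was highest in microglia or macrophage-like nuclei (15.5, 17.2 and 17.1).

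The Etv4 values were also set beside the mix of classes in each library. At the inside-gene region of Etv4, the intervals were 43.2 to 78.1 in astrocyte-like cluster 3 of PDGFB-WT, 39.6 to 62.3 and 40.4 to 67.9 in clusters 3 and 6 of PDGFB-NLS, and 54.9 to 75.5 in cluster 3 of Control. In OPC-like nuclei it had 25.1 FPM in PDGFB-WT (16.5 to 36.5), 27.6 in PDGFB-NLS (20.8 to 35.9) and 15.2 in Control (5 fragments, 4.95 to 35.5), with overlapping intervals. The classes' shares of all shared-region counts were 30.6% OPC-like in PDGFB-WT, 15.5% in PDGFB-NLS and 2.47% in Control, and 22.9%, 21.5% and 18.4% astrocyte-like. The astrocyte-like share of PDGFB-WT leaves out its unnamed cluster 5, which held 6.76% of these counts. Astrocyte was the highest marker list there, and astrocyte markers stood at 97.3% of their highest cluster. Oligodendrocyte-like nuclei, in which the inside-gene region was low (11.5 in PDGFB-NLS and 5.37 in Control), held 19.6% of these counts in PDGFB-NLS and 25.2% in Control. The part of this mix in the Etv4 ratio was not tested.

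Some regions at the brakes were most open in endothelial-like or in microglia or macrophage-like nuclei, though not only there. A region at -1.47 kb from the Dusp6 start (chr10:99261336-99262195) had 120 FPM in endothelial-like nuclei of PDGFB-NLS and 126 in those of Control, and at most 63.1 in any other named cluster. Beyond the 3′ end of Dusp6, the region 5.58 kb from the start was open in both classes, at 42.0, 29.2 and 36.5 in microglia or macrophage-like nuclei of PDGFB-WT, PDGFB-NLS and Control. A region 14.3 kb downstream of the Spry1 start (chr3:37653804-37654755) had 22.8, 40.4 and 46.3 FPM in microglia or macrophage-like nuclei of PDGFB-WT, PDGFB-NLS and Control. The astrocyte-like clusters had 7.498 in PDGFB-WT, 4.43 and 5.20 in PDGFB-NLS and 2.06 in Control at this Spry1 region. At Spry2, the region 3.47 kb downstream of the start was most open in oligodendrocyte-like nuclei, at 32.6 in PDGFB-NLS and 20.9 in Control.

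Other genes of the pathway were read at their gene ends, where 5.87% of all genes were past 1.5-fold higher and 2.42% lower in PDGFB-WT against Control, and 4.8% and 1.24% in PDGFB-NLS against Control. Of 24 genes of the chain from receptor to ERK, 23 were compared in PDGFB-WT against Control, and 1 was past 1.5-fold higher and 1 lower. The higher was the RAF kinase gene Araf (log2 0.69, 0.26 to 1.15) and the lower Rps6ka1, which encodes an ERK-activated kinase (-0.74, -1.09 to -0.41). All 24 were compared in PDGFB-NLS against Control, with Ksr2, a scaffold of the chain, higher (0.85, 0.46 to 1.31) and the ERK-activated kinase gene Rps6ka3 lower (-0.61, -0.76 to -0.45). The list medians were -0.15 in PDGFB-WT and -0.05 in PDGFB-NLS.

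The other feedback inhibitors of ERK, 16 listed genes, had no gene past 1.5-fold in PDGFB-WT (13 compared) or PDGFB-NLS (14 compared) against Control. Their medians were -0.24 and -0.03. The lowest values in PDGFB-WT were those of the MAP kinase phosphatase genes Dusp8 (-0.51, -0.77 to -0.28) and Dusp7 (-0.38, -0.60 to -0.22). Dusp4 and Dusp6 of the same family had values above 0 there, 0.41 and 0.27.

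Among 17 other ETS genes and CIC with its partners, 3 of 12 compared were past 1.5-fold lower in PDGFB-WT against Control and none higher, beside 2.42% and 5.87% of all genes. The lowest were Elk4, an ETS factor that acts with SRF, at 31.9 CPM in PDGFB-WT and 80.4 in Control (log2 -1.18), and Atxn1, whose product binds CIC, at 31.9 and 61.2 CPM (-0.78, -1.09 to -0.51). The third was Erf, an ETS repressor gene, at 51.4 CPM in PDGFB-WT and 91.3 in Control. In PDGFB-NLS against Control, 2 of 14 were lower and 1 higher, beside 1.24% and 4.8% of all genes. Those were Elk4 (33.1 and 80.4 CPM, -1.26), Erf (48.7 and 91.3 CPM, -0.89, -1.03 to -0.75) and Erg, an endothelial ETS factor (9.44 and 4.11 CPM, 1.22, 0.74 to 1.70). Erg was also on the list of endothelial markers, and endothelial-like nuclei made up 10.6% of barcodes in PDGFB-NLS and 22.8% in Control. The Elk4 ratios rest on counts and their intervals on fragments. The intervals were -1.23 to -0.70 in PDGFB-WT and -1.24 to -0.93 in PDGFB-NLS, against Control. The PDGFB-NLS ratio lay below its interval. Gene ends of the pathway lists sum each library's own peaks, and shared regions alone were not read for them.

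Of 16 early response targets of ERK, 2 of 13 compared were past 1.5-fold higher in PDGFB-WT against Control and none lower, beside 5.87% and 2.42% of all genes. They were Myc, a growth regulator (37.8 CPM in PDGFB-WT, 33.1 in PDGFB-NLS and 24.7 in Control; log2 0.77, 0.46 to 1.05) and Ccnd1, which encodes cyclin D1 (18.1, 13.3 and 12.4 CPM; log2 0.70, 0.31 to 1.16). None of 15 was past 1.5-fold in PDGFB-NLS against Control, where Myc had a log2 ratio of 0.44 (0.21 to 0.62). The list medians were 0.13 in PDGFB-WT and -0.11 in PDGFB-NLS. Between the PDGFB libraries, the chain had 1 gene past 1.5-fold higher (Rps6ka1, 0.74) and the ETS list 1 (Atxn1, 0.87), and the other lists had none, beside 1.92% of all genes higher and 3.07% lower.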

How the data were processed

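Nuclei of 3 libraries were assayed by single-cell ATAC-seq with the 10x Chromium kit named in the labels' protocols. The deposited matrices hold raw counts of cut sites per peak and barcode, with peaks listed separately per library. They were made with cellranger-atac 2.1.0, per the file headers, while Cell Ranger 8 and the mm10 build are named in the submitters' processing notes. The sources used here do not say how peaks and cells were called.

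Barcodes of at least 200 counts and chromosomes 1 to 19, X and Y were used. Overlapping peaks from the separate lists (1 bp or more) were joined into regions, and the 47450 called in all 3 set the CPM scale. For intervals, cut sites were paired into fragments, (v + 1) // 2 for a matrix value v: Clopper-Pearson on the conditional binomial for ratios and exact Poisson for levels, both at 95% and for counting error only. Gene positions came from RefSeq GRCm38.p6. The end of each gene with the higher mean CPM was used, given 100 counts or more in whichever library had fewer (20 within classes). The all-gene median log2 ratios taken off were -0.16, -0.02 and 0.13 at gene ends, and 0.09, 0.03 and -0.07 at other peaks, in the order PDGFB-WT over Control, PDGFB-NLS over Control, then PDGFB-NLS over PDGFB-WT. Past 1.5-fold is a description of size and no test.

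Clusters came from term-frequency weighting, singular value components 2 to 30, 15 neighbours and Leiden clustering (leidenalg 0.10.2, resolution 0.6). A name needed a median marker log2 fold of 1.2 over the other clusters, a threshold set after the data were seen, and 3 detected markers. No doublet caller was run; an alternative left out the barcodes with the highest counts. Named genes were the members, the 2 highest and 2 lowest of each pathway list, and the 3 highest and 3 lowest single regions per comparison, and not all of these are printed. Members and lists were chosen with earlier results of these data known. The arithmetic was tested on simulated data.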

Additional observations from a re-analysis of the deposited data

How the results depend on the processing

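At the gene end used, no member was past 1.5-fold under any of 13 alternatives in any comparison. Not all of these could have given another result. A fold of 2 could only lower the count, and the changed minimum counts could only move the all-gene median. The peaks called at the loci numbered 53, 154 and 136 in PDGFB-WT, PDGFB-NLS and Control with 50 kb flanks. At the other peaks, the count of members past 1.5-fold in PDGFB-WT against Control, 1 as reported, was 2 over each library's own peaks and 3 with a minimum of 10 counts. Over own peaks those 2 were Spred2 (log2 -1.49) and Dusp4 (-0.67), both lower, and Etv4 had 0.16. It was 0 with values capped at 1, without barcodes above the 95th percentile, with 50 kb flanks, with windows of 2000 bp and at a fold of 2. With a minimum of 10 counts it was 1 in PDGFB-NLS against Control and 1 in PDGFB-NLS against PDGFB-WT, both 0 as reported. Over each library's own peaks, which differ in what was called, it was 2 in PDGFB-NLS against PDGFB-WT (Spred2 at 1.53 and Dusp4 at 0.76). The Spry2 end in microglia or macrophage-like nuclei of Control was 1.93 FPM, in place of 3.84, without barcodes above the 95th percentile. Of 603 recomputed member log2 ratios, 22 moved beyond their interval. Changes of sign were counted only for ratios past 1.5-fold as reported. That was only Etv4 at the other peaks in PDGFB-WT against Control, which kept its sign. Some smaller ratios did change sign. Dusp4 at the other peaks in PDGFB-WT against Control ran from -0.67 to 0.39 over the alternatives. The cause of these moves was not tested. No paired analysis was possible because each group has 1 library, and for the same reason no library could be left out.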
